A study of Mus musculus with 6 samples.

Results

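The genes described here encode the proteins that form a fibrin clot, hold its growth in check and dissolve it again. The 36 members were taken by symbol from a list of such genes, drawn up with earlier results of these data known, out of 25403 genes listed for mouse liver RNA. All 36 were listed, and all 36 had enough counts to be compared among the 14496 genes tested. Genes were kept apart by where their RNA is mainly made, as 23 plasma proteins made by hepatocytes, 6 genes of vascular and myeloid cells (*F3*, *F13a1*, *Vwf*, *Thbd*, *Plau* and *Plaur*), and 7 receptors and other members (*F2r*, *F2rl1*, *F8*, *Tfpi*, *Plat*, *Vkorc1* and *Ggcx*).

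Poly(A) RNA of whole liver was sequenced from 3 mice labelled wild-type C57BL6/J and 3 labelled *Themis* KO, a whole-body knockout of a regulator of T cell receptor signaling, and the study asked how the loss of THEMIS changes gene expression in fatty liver disease. Mice of both genotypes ate the MASH diet (by energy 40% fat and 20% fructose, with 2% added cholesterol) for 3 months from an age of 10 to 12 weeks, so that no liver of a chow-fed mouse stands beside them. MASH is metabolic dysfunction–associated steatohepatitis, a fatty liver with inflammation. The labels do not give the sex of the 6 mice. The study's Methods state that males were used for its metabolic experiments, and its figure legend for the MASH-fed WT and *Themis*-KO mice names males. Its text speaks of littermates where it describes chow-fed mice. A whole-body knockout is not limited to 1 cell type.

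The liver makes most plasma clotting factors. Injured tissue exposes tissue factor, which binds factor VII, and a cascade of serine proteases then activates prothrombin to thrombin, which turns fibrinogen into fibrin. Antithrombin, heparin cofactor II and the protein C system restrain thrombin, and plasmin, cut from plasminogen by tissue-type or urokinase-type activators, dissolves the fibrin. Several of the factors are carboxylated with the help of vitamin K, a step that they need in order to bind membranes.

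*Themis* itself was examined first, since it bears on the labels. Its level in CPM (a gene's count relative to its library's total, with totals scaled by TMM normalization) was 8.07, 25.6 and 12.0 in the livers labelled WT 1 to 3 and 8.63, 7.74 and 9.97 in those labelled *Themis*-KO 1 to 3. The groups overlapped, and the log2 fold change of −0.79 (SE 0.38) did not pass edgeR's quasi-likelihood test (Benjamini-Hochberg adjusted p = 0.199), nor an exact two-sided permutation test (p = 0.3, where the smallest possible with 3 livers against 3 is 0.1). Which part of the gene the allele lacks is not given in the sources used here, and a count over the whole gene can hold reads from the part that is left. The groups are therefore called the livers labelled WT and the livers labelled *Themis*-KO.

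The libraries held between 20679642 and 25649767 counts. A pair of libraries, WT 1 and WT 2, stood apart from the other 4 in a mitochondrial-like transcript: *Gm28438* took 96.6% and 96.8% of its summed counts with *mt-Nd3* in them and between 2.20% and 3.26% in WT 3 and the 3 *Themis*-KO livers. Where this split was entered as a covariate, so that WT 3 alone stood for its label, 0 members were called by edgeR (7 hepatocyte-made members lower and 1 receptor higher had an unadjusted p under 0.05, against 5.11% of all genes lower and 5.4% higher), and over all genes 0 were called higher and 3 lower. For WT 1 and WT 2 the split and the label cannot be told apart.

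Several members lie next to each other in the genome, and their positions and promoters are given before their values. *F7* (factor VII), *F10* (factor X) and *Proz* (protein Z, a cofactor for the inhibition of factor X) lie in a row on chromosome 8, from 13026034 to 13076026 (GRCm38, plus strand). *F11* (factor XI) and *Klkb1* (plasma prekallikrein), which arose by duplication of a common ancestor, lie on the same chromosome from 45241174 to 45294859 (minus strand). The 3 chains of fibrinogen, *Fgg*, *Fga* and *Fgb*, lie on chromosome 3 from 83007724 to 83049863. The 250 bases before the RefSeq start site (GRCm38.p6) are shown for 6 of these genes, 5′ to 3′ in the direction of transcription, first for the members with the largest falls among the hepatocyte-made ones and then for the fibrinogen chains. Capitals mark matches, on either strand, to the motif letters given after them.

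F7 promoter, chr8:13025784-13026033, plus strand: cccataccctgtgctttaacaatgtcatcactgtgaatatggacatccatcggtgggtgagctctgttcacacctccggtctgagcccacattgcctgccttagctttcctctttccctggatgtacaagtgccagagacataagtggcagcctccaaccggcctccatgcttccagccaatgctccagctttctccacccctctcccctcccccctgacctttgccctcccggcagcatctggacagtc
F11 promoter, chr8:45262032-45262281, minus strand: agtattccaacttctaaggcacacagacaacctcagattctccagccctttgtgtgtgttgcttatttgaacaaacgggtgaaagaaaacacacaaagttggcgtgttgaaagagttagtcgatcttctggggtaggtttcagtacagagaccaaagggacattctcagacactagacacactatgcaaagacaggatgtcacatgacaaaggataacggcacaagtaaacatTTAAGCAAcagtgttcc
Klkb1 promoter, chr8:45294836-45295085, minus strand: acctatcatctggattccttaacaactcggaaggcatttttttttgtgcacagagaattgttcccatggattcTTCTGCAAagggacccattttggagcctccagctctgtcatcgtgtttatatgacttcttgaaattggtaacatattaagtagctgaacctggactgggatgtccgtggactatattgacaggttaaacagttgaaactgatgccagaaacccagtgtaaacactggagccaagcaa
Fga promoter, chr3:83025903-83026152, plus strand: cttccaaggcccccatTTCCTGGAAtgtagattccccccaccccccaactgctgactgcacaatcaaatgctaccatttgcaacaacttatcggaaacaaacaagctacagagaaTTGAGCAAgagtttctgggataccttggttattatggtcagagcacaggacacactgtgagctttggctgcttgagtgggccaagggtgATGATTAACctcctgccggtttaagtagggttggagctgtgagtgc
Fgb promoter, chr3:83049864-83050113, minus strand: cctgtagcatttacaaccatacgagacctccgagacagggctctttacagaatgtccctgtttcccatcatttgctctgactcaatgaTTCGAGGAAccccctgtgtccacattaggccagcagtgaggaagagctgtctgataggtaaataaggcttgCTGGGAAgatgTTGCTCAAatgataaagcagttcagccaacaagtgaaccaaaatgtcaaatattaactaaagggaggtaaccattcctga
Fgg promoter, chr3:83007474-83007723, plus strand: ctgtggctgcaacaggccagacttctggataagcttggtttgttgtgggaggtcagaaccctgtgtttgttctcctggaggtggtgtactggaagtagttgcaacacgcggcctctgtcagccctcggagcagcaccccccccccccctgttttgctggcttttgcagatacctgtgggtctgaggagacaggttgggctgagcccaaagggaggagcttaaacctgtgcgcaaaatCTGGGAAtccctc

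The letters searched, on both strands, were GTTAATNAT (HNF1, a transcription factor of hepatocytes), CAAAGTCCA (HNF4, likewise), TTGCNNAA (C/EBP), TTCNNNGAA (STAT) and CTGGGAA (an IL-6 response element of acute phase genes), in windows of 300 bases that run from 250 before to 50 after the start. RefSeq windows were matched by symbol for 27 of the 36 members, 19 of the windows being of hepatocyte-made members. In these 19, the C/EBP letters were present in 8 (42.1%), against 10.8% of all 32851 windows. HNF1 letters were present in 2 of 19 (10.5%, all windows 0.801%), STAT letters in 4 (21.1%, all windows 8.30%), IL-6 element letters in 4 (21.1%, all windows 11.1%) and HNF4 letters in 0 (all windows 0.475%). *Fga* held a match to HNF1, C/EBP and STAT letters, *Fgb* to C/EBP, STAT and IL-6 element letters, and *Fgg* to the IL-6 element letters. *F11* and *Klkb1* each held a C/EBP match. The *F7* window held no match to any of the 5 motifs. A match is a stretch of letters and not a bound site, and STAT and IL-6 element letters can overlap, as they did in *F9*.

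Per kilobase of exon, the members spanned from abundant plasma proteins to rare receptors. In the livers labelled WT the highest mean levels were those of *Fga* (1328 CPM per kb), *Fgg* (1269) and *Fgb* (970), followed by *Kng1*, the kininogen gene (518), *Plg*, plasminogen (358), and *F2*, prothrombin (282). The lowest was *F13a1*, the catalytic subunit of factor XIII, at 0.163 CPM per kb. The fibrinogen chains, *Kng1*, *Plg* and *F2* held ranks 1 to 6 under both labels. Exon length was taken as the union of all annotated exons of a gene, so the order depends on the annotation. *Serpinc1*, with a WT mean of 1470 CPM and 8546 exon bases, ranked 10 under WT. *F2*, with 1296 CPM and 4594 bases, ranked 6. The 23 hepatocyte-made members together took between 1.32% and 2.61% of the normalized counts of a liver.

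**Figure D1:**
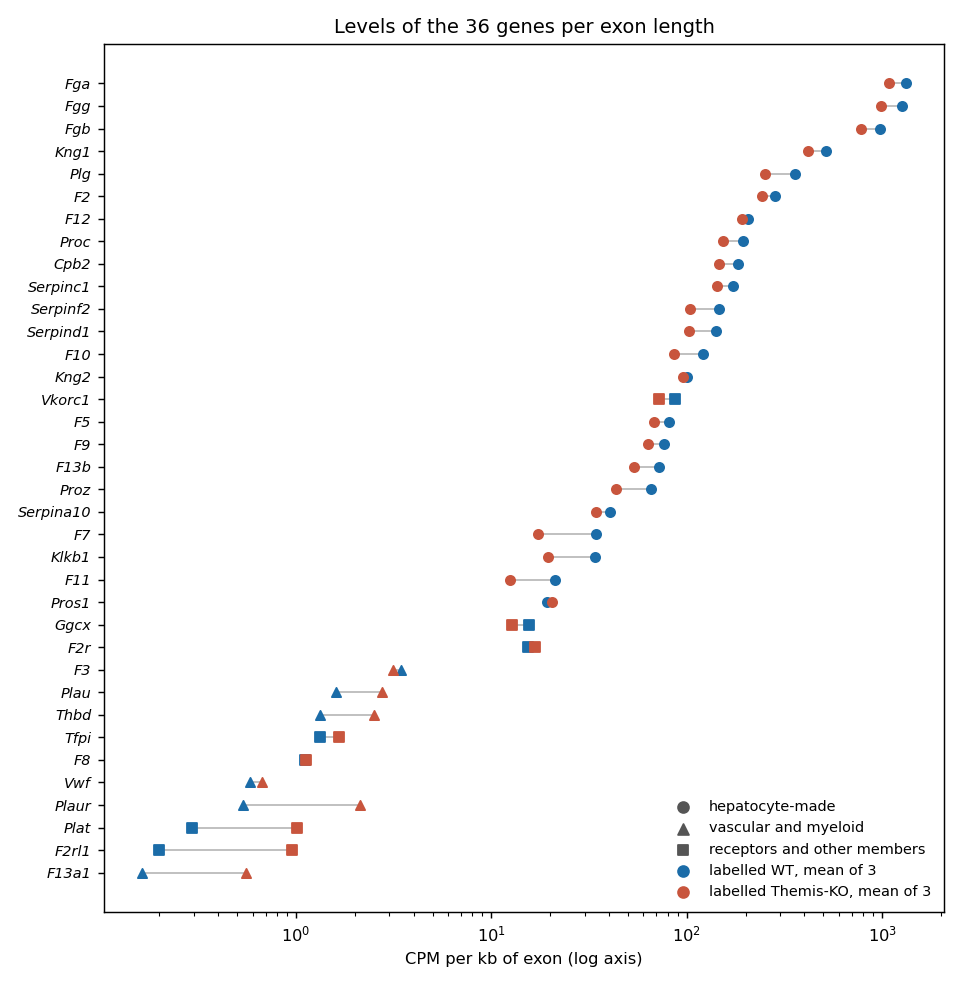
Mean level of each of the 36 genes in CPM per kb of exon on a log axis, for the 3 livers labelled WT (blue) and the 3 labelled *Themis*-KO (red); circles are hepatocyte-made members, triangles vascular and myeloid genes, and squares receptors and other members. Fibrinogen chains lie at the top, with *Fga* at 1328 CPM per kb under WT, and *F13a1* at the bottom with 0.163.

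Among the 23 hepatocyte-made members, 7 fell in the livers labelled *Themis*-KO and 0 rose at an adjusted p under 0.05. The 7 were *F7*, *Klkb1*, *F11*, *Proz*, *F10*, *Serpind1* and *F13b*. Over all genes tested, 4.14% (600) were called lower and 4.97% (721) higher. Scaling by total counts alone made the split over all genes 387 lower and 1449 higher, with 7 hepatocyte-made members lower. In 16 of the 23 every liver labelled *Themis*-KO lay below every liver labelled WT, which held for 16.9% of all genes, and in 0 of 23 did every one lie above, against 17.7% of all genes. The log2 fold change was negative in 22 of 23, with a median of −0.33 beside 0.0095 over all genes. The unadjusted p was under 0.05 in 16 of 23, all of them lower, against 13.9% of all genes lower and 16.8% higher. Falls took in genes that promote clotting and genes that restrain it: 5 of 14 procoagulant members (fibrinogen, factors, prekallikrein and kininogens; median log2 fold change −0.31) and 2 of 6 anticoagulant members (proteins C, S and Z and the 3 serpins; median −0.31) were called lower.

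The count of 7 depended on the libraries. It was 9 without *Themis*-KO 3, 8 without WT 3, 1 without WT 1, WT 2 or *Themis*-KO 2, and 0 without *Themis*-KO 1, while the calls over all genes went from 8 higher and 12 lower without *Themis*-KO 1 to 2228 and 2039 without *Themis*-KO 3. With the replicate number as a block it was 1, *F7*, and DESeq2 gave 13, with 7.12% of all genes called lower.

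Of the 11 hepatocyte markers tested, 1 was called lower (*Rbp4*, all genes 4.14%) and 10 had a negative value, with a median log2 fold change of −0.26. In 5 of the 11 every *Themis*-KO liver lay below every WT liver (all genes 16.9%). The unadjusted edgeR p was under 0.05 in 3 of the 11, all of them lower (all genes 13.9%). The summed level of the 11 ran from 64952 to 69622 CPM under WT and from 55294 to 59414 CPM under *Themis*-KO. *Alb*, the albumin gene, lay between 33597 and 43023 CPM in the 6 livers. In bulk liver RNA, fewer cells of a type and less RNA per cell cannot be told apart. The part of the hepatocyte markers' shift in the fall of the factors was not tested.

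**Figure D2:**
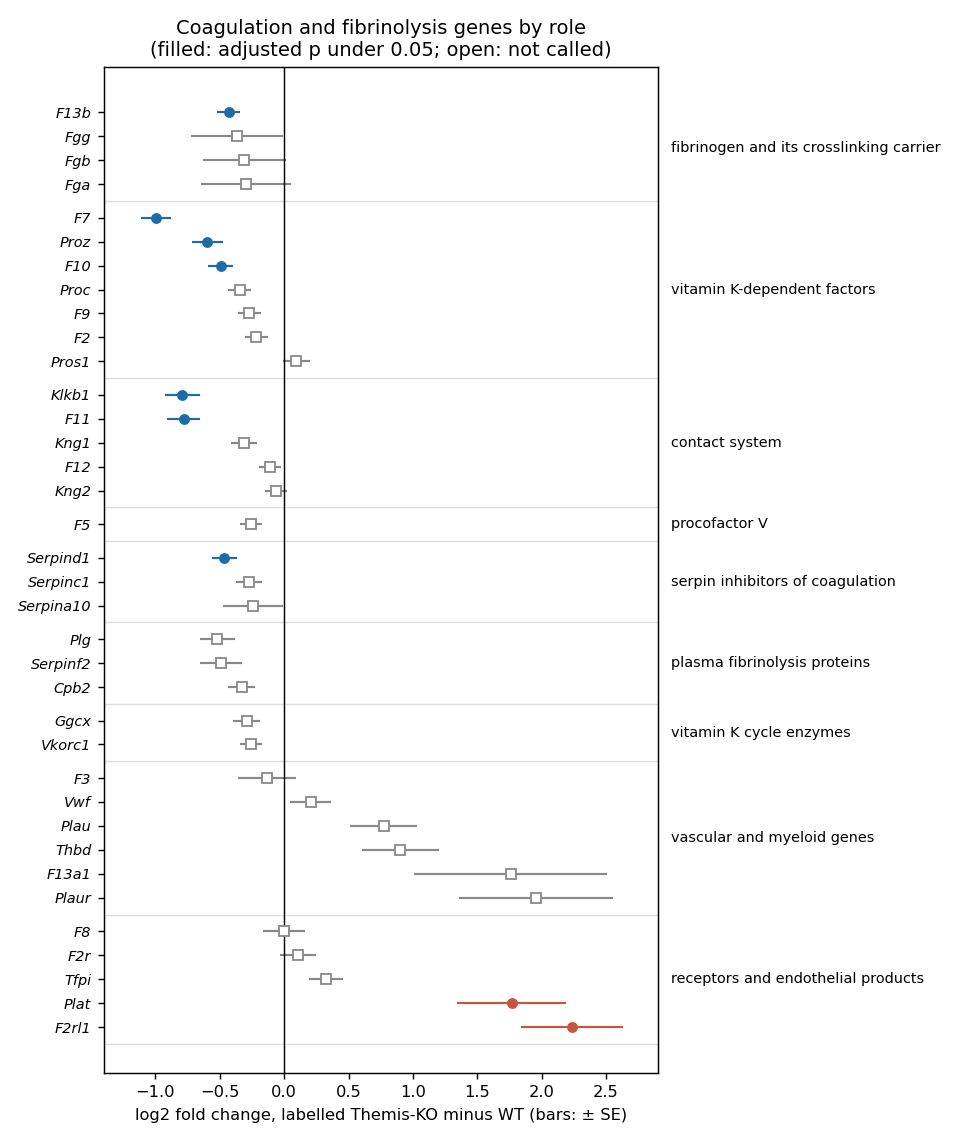
Log2 fold change of each of the 36 genes (livers labelled *Themis*-KO minus WT, edgeR) with its standard error as a bar, grouped by role; filled circles passed an adjusted p of 0.05, open squares did not. The 7 members called lower lie among the hepatocyte-made groups, from −0.996 (*F7*) to −0.43 (*F13b*), and the 2 called higher are *Plat* and *F2rl1*.

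*F7* showed the largest fall of the hepatocyte-made members. Factor VII starts the extrinsic pathway once it meets tissue factor. Its level was 74.7, 59.3 and 58.0 CPM in the livers labelled WT and 30.6, 32.8 and 32.8 CPM in those labelled *Themis*-KO. The 3 *Themis*-KO livers lay close together, and the highest of them was below the lowest WT liver. The means were 64.0 ± 9.31 and 32.1 ± 1.25 CPM (SD, n = 3 each), and the log2 fold change was −0.996 (SE 0.11, edgeR adjusted p = 0.00936). It was called in 5 of the 6 fits that left out 1 liver, with log2 fold changes from −1.06 to −0.87 and a largest adjusted p of 0.0506, and it was called with the replicate block (edgeR adjusted p = 0.0487). With the mitochondrial split as a covariate its edgeR adjusted p was 0.224. Within the 4 livers on the same side of that split, WT 3 lay above the highest *Themis*-KO liver by 0.82 on the log2 scale.

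Its neighbours on the chromosome, *F10* and *Proz*, fell as well, and whether they fell less was not tested. Factor X is the protease that converts prothrombin. *F10* stood at 357, 319 and 313 CPM under WT and at 227, 218 and 257 CPM under *Themis*-KO, and the log2 fold change was −0.49 (SE 0.10, edgeR adjusted p = 0.0327). *Proz* stood at 388, 372 and 336 CPM under WT and at 227, 219 and 281 CPM under *Themis*-KO (log2 fold change −0.60, SE 0.12, edgeR adjusted p = 0.0318). The groups did not overlap for either gene, with *Themis*-KO 3 the nearest to the WT livers. The ratio of *F7* to *F10* counts ran from 0.185 to 0.209 in the livers labelled WT and from 0.127 to 0.150 in those labelled *Themis*-KO, and the labels did not overlap in it.

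The genes on either side of the 3 were not called. *Mcf2l*, before *F7*, had a log2 fold change of 0.03 (edgeR adjusted p = 0.952). *Atp11a* (−0.35, 0.483) and *Tubgcp3* (−0.07, 0.594) lie farther before it. After *Proz*, *Pcid2* had −0.20 (0.251), *Cul4a* −0.32 (0.0846) and *Lamp1* 0.16 (0.254).

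Of the other vitamin K-dependent members, *F2*, *F9* (factor IX), *Proc* (protein C, which inactivates factors V and VIII) and *Pros1* (protein S, its cofactor) were not called. *Proc* was the nearest to the threshold, at 473, 512 and 454 CPM under WT and 378, 356 and 399 CPM under *Themis*-KO (log2 fold change −0.35, SE 0.09, edgeR adjusted p = 0.0552). *F9* and *F2* had log2 fold changes of −0.27 and −0.21, with edgeR adjusted p of 0.0896 and 0.158. The groups did not overlap in these 3 genes. *Pros1*, which endothelial cells make as well, was the one hepatocyte-made member with a positive value (log2 fold change 0.10, SE 0.10, edgeR adjusted p = 0.561), and its groups overlapped. Among the 7 vitamin K-dependent genes, 3 were called lower (all genes 4.14%). In 6 of them every *Themis*-KO liver lay below every WT liver (all genes 16.9%).

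The enzymes that serve these factors were not called. *Vkorc1* recycles vitamin K, and *Ggcx* is the carboxylase that uses it. *Ggcx* had 55.7, 44.3 and 51.2 CPM under WT and 38.2, 41.6 and 43.8 CPM under *Themis*-KO (log2 fold change −0.29, SE 0.11, edgeR adjusted p = 0.114). *Vkorc1* had a log2 fold change of −0.26 (SE 0.09, edgeR adjusted p = 0.0953). In both genes every *Themis*-KO liver lay below every WT liver (all genes 16.9%). Without *Themis*-KO 3 both were called lower, while the number called lower over all genes went from 600 to 2039. *Vkorc1* shares 401 of its 840 exon bases with the gene model *Gm21974* on the same strand, so that its count depends on how RSEM divided reads between them.

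In the contact system, which starts clotting on charged surfaces and releases bradykinin, *F11* and *Klkb1* fell and the other 3 genes did not pass the test. *Klkb1* stood at 177, 195 and 161 CPM under WT and at 99.6, 87.2 and 121 CPM under *Themis*-KO. *F11* stood at 55.2, 44.1 and 43.5 CPM under WT and at 25.1, 26.8 and 31.4 CPM under *Themis*-KO. In both genes the livers labelled *Themis*-KO lay below all 3 labelled WT, and *Themis*-KO 3 was the highest of its group.

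The log2 fold changes were −0.79 (SE 0.13, edgeR adjusted p = 0.0236) for *Klkb1* and −0.78 (SE 0.13, edgeR adjusted p = 0.0223) for *F11*. The ratio of *F11* to *Klkb1* counts ran from 0.227 to 0.312 under WT and from 0.252 to 0.308 under *Themis*-KO, overlapping between labels. On the side of *Klkb1*, the next gene on the chromosome, *Cyp4v3*, was called lower as well (log2 fold change −0.55, edgeR adjusted p = 0.0293), and *Fam149a* and *Tlr3* after it were not (−0.37, 0.0604 and −0.35, 0.156). On the side of *F11*, *Mtnr1a* (−0.13, 0.741), *Fat1* (0.72, 0.0562) and *Frg1* (−0.12, 0.542) were not called. *Klkb1* shares 2267 exon bases with the overlapping gene model *Gm45753* on the same strand, so that its count depends on how RSEM divided reads between them. *Gm45753* had means of 3.79 CPM under WT and 1.59 CPM under *Themis*-KO, and *Klkb1* 178 and 103 CPM. The log2 fold change of *Gm45753* was −1.26 (edgeR adjusted p = 0.203). The effect of the division was not tested.

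*Kng1*, the main kininogen gene, had a log2 fold change of −0.31 (SE 0.10, edgeR adjusted p = 0.0800) with groups that did not overlap. *F12* (factor XII) and *Kng2* had −0.11 and −0.06 with groups that overlapped, and both turned positive under scaling by total counts alone, which shifts the median of all genes from 0.0095 to 0.15. *Kng1* and *Kng2* are near copies of each other, and reads can be divided between them. Beside them on chromosome 16 lie *Fetub* (log2 fold change −0.48, edgeR adjusted p = 0.0302) and *Hrg* (−0.67, 0.0252), both called lower, while the other neighbours examined were not called: *Ahsg* at −0.09 (0.794), *Eif4a2* at −0.19 (0.192), *Rfc4* at −0.07 (0.876) and *St6gal1* at 0.02 (0.886).

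Factor XIII crosslinks fibrin. Its carrier subunit *F13b* stood at 185, 191 and 173 CPM under WT and at 136, 126 and 146 CPM under *Themis*-KO, without overlap. It fell by 0.43 on the log2 scale (SE 0.09, edgeR adjusted p = 0.0345). *F5*, the procofactor that speeds up factor X, had a log2 fold change of −0.25 (SE 0.09, edgeR adjusted p = 0.0944), and its groups did not overlap either.

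Serpins are inhibitors that trap proteases. *Serpind1* (heparin cofactor II, an inhibitor of thrombin) stood at 327, 317 and 284 CPM under WT and at 212, 215 and 246 CPM under *Themis*-KO, and fell by 0.46 on the log2 scale (SE 0.10, edgeR adjusted p = 0.0366). *Serpinc1* (antithrombin), the more abundant inhibitor, had a log2 fold change of −0.27 (SE 0.10, edgeR adjusted p = 0.117) with groups that did not overlap. Its exons share 2942 bases with *Zbtb37* on the opposite strand, and whether counting used the strand is not given in the sources used here. *Serpina10*, the protein Z-dependent inhibitor, is described with fibrinogen.

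**Figure D3:**
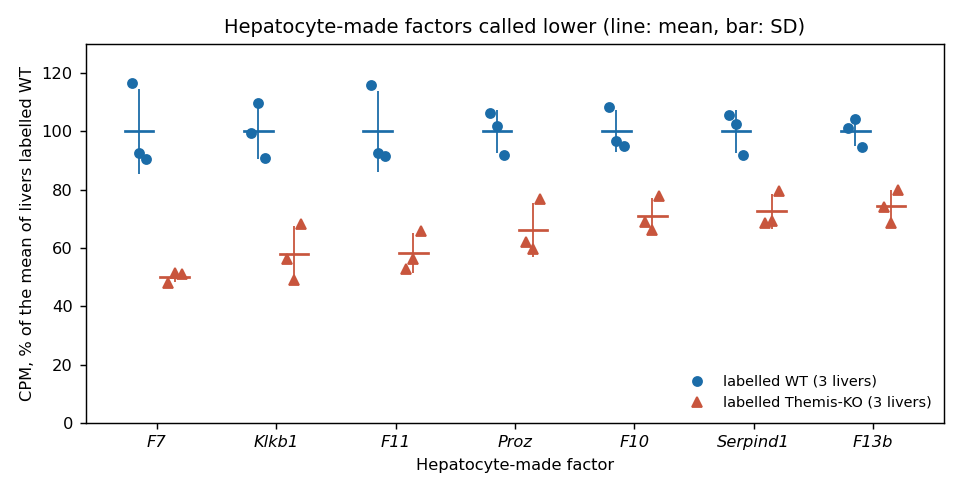
Level of the 7 hepatocyte-made members called lower, in percent of the WT mean; blue circles are the 3 WT livers, red triangles the 3 *Themis*-KO livers, the line is the mean and the bar the SD. The groups do not overlap in any of the 7, and the gap is widest for *F7*.

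*F13b*, *F10*, *Proz*, *F11*, *Klkb1* and *Serpind1* were each called in 2 of the 6 fits with 1 liver left out, those without WT 3 and without *Themis*-KO 3, and in none of the other 4. With the replicate block their edgeR adjusted p ran from 0.0817 (*F11*) to 0.121 (*Serpind1*). Their direction was negative in all these fits. Over all genes the calls were 481 higher and 369 lower without WT 3, and 2228 and 2039 without *Themis*-KO 3. In the other 4 fits with 1 liver left out they ran from 8 to 27 higher and from 12 to 57 lower.

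The 3 fibrinolysis proteins of plasma were lower in every *Themis*-KO liver than in any WT liver (all genes 16.9%), but did not pass edgeR's test after adjustment. *Plg*, the precursor of plasmin, stood at 1572, 1291 and 1121 CPM under WT and at 969, 932 and 883 CPM under *Themis*-KO. Its log2 fold change was −0.52 (SE 0.13, edgeR adjusted p = 0.0516), just above the threshold of 0.05. The inhibitors *Serpinf2* (antiplasmin) and *Cpb2* (thrombin-activatable fibrinolysis inhibitor), which slow the same reaction, had −0.49 (SE 0.16, edgeR adjusted p = 0.0907) and −0.33 (SE 0.10, edgeR adjusted p = 0.0819). DESeq2 called all 3 lower (all genes 7.12%), with adjusted p of 0.00326 (*Plg*), 0.0259 (*Serpinf2*) and 0.0318 (*Cpb2*). The ratio of *Plg* to *Serpinf2* counts overlapped between labels, from 3.62 to 4.37 under WT and from 3.52 to 4.36 under *Themis*-KO.

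The fibrinogen chains, the most abundant members, did not follow the labels. *Fga* stood at 5926, 2592 and 3474 CPM under WT and at 3586, 4196 and 2006 CPM under *Themis*-KO. *Fgb* stood at 5329, 2654 and 3106 CPM and at 3331, 3754 and 1867 CPM, and *Fgg* at 3944, 1809 and 2214 CPM and at 2283, 2692 and 1213 CPM, in the same order of livers. WT 1 was the highest and *Themis*-KO 3 the lowest for each chain, and the groups overlapped.

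Their log2 fold changes were −0.29 (SE 0.35), −0.31 (SE 0.32) and −0.36 (SE 0.36), with edgeR adjusted p of 0.596, 0.541 and 0.512. Without WT 1 they were 0.10, 0.049 and 0.034. The chains kept nearly the same proportion in the 6 livers. The count of *Fga* per count of *Fgb* ran from 0.976 to 1.12, and that of *Fgg* per *Fgb* from 0.649 to 0.740. *Fga* varied 2.95-fold between the highest and the lowest liver, *Fgb* 2.85-fold and *Fgg* 3.25-fold.

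*Serpina10* had the same order of livers as the chains, at 193, 114 and 120 CPM under WT and 130, 139 and 91.7 CPM under *Themis*-KO. Its log2 fold change was −0.24 (SE 0.23, edgeR adjusted p = 0.502), and 0.039 without WT 1. From the highest to the lowest liver, the order was WT 1, *Themis*-KO 2, *Themis*-KO 1, WT 3, WT 2 and *Themis*-KO 3. This exact order was shared by 54 of 14496 genes (0.373%), and the exact reverse by 38. The chains and *Serpina10* were singled out after their values were seen, and the likeness is a description over 6 livers.

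**Figure D4:**
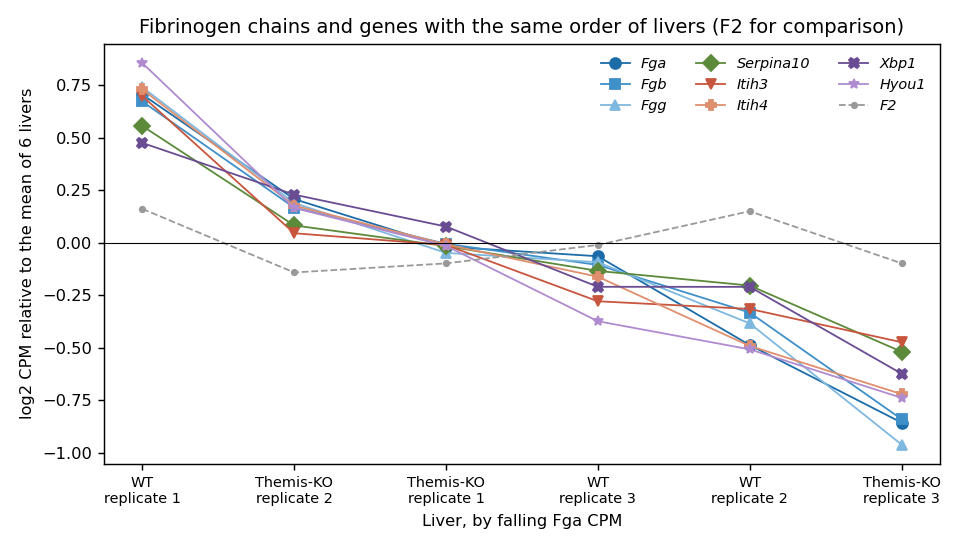
Log2 CPM relative to the mean of the 6 livers, with the livers arranged by falling *Fga* level, for the fibrinogen chains, *Serpina10* and 4 other genes with the same order (*Itih3*, *Itih4*, *Xbp1*, *Hyou1*); *F2* is drawn as a dashed line for comparison. The livers of both labels are mixed along the axis, with WT 1 highest and *Themis*-KO 3 lowest.

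Of the 6 vascular and myeloid genes, 0 were called in either direction by edgeR, 4 were higher at an unadjusted p under 0.05 (all genes 16.8%), and DESeq2 called 2 higher (all genes 8.02%). Their median log2 fold change was 0.84. *Plaur*, the receptor that holds urokinase on the cell surface, stood at 0.734, 0.912 and 2.57 CPM under WT and at 8.92, 5.59 and 2.13 CPM under *Themis*-KO. *Themis*-KO 1 and 2 were well above the WT livers, while *Themis*-KO 3 lay below WT 3. The log2 fold change was 1.96 (SE 0.60, edgeR adjusted p = 0.0769).

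*F13a1*, the catalytic subunit of factor XIII, is made by macrophages and platelets. It stood at 0.917, 0.720 and 1.66 CPM under WT and at 5.99, 4.82 and 0.472 CPM under *Themis*-KO (log2 fold change 1.76, SE 0.75, edgeR adjusted p = 0.158). *Themis*-KO 3 had the lowest value of the 6 livers. *Thbd* (thrombomodulin, the endothelial receptor that turns thrombin toward protein C) stood at 4.22, 4.46 and 6.20 CPM under WT and at 12.0, 10.4 and 5.48 CPM under *Themis*-KO (0.90, SE 0.30, edgeR adjusted p = 0.0891), with *Themis*-KO 3 again among the WT values.

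*Plau*, the urokinase gene, was the one gene of the 6 whose groups did not overlap, at 2.61, 3.65 and 5.17 CPM under WT and 7.10, 7.27 and 5.24 CPM under *Themis*-KO (log2 fold change 0.77, SE 0.26, edgeR adjusted p = 0.0940). Over all genes, 17.7% had every *Themis*-KO liver above every WT liver. *Vwf* (von Willebrand factor) had a log2 fold change of 0.21 (SE 0.16, edgeR adjusted p = 0.403) and *F3* (tissue factor) −0.13 (SE 0.23, edgeR adjusted p = 0.722, positive with total counts alone), both with overlapping groups. Without *Themis*-KO 3, *F13a1*, *Thbd*, *Plau* and *Plaur*, 4 of the 6, were called higher, and over all genes the number called higher went from 721 to 2228. With all 6 livers and no filter on low counts, 2 of the 6 were called higher, beside 1212 of 25403 genes over all.

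**Figure D5:**
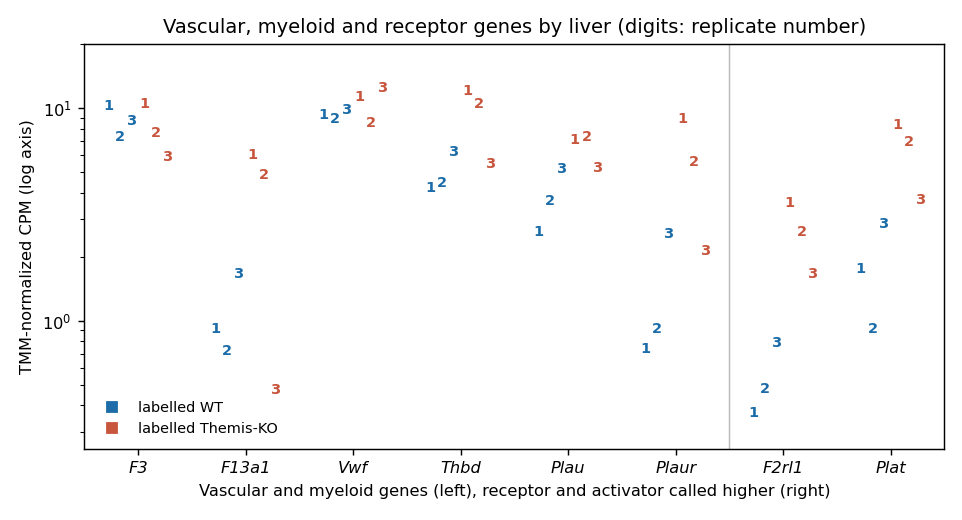
TMM-normalized CPM on a log axis for the 6 vascular and myeloid genes and for *F2rl1* and *Plat*, with each liver drawn as its replicate number, blue for the label WT and red for *Themis*-KO. *Themis*-KO 3 falls among or below the WT livers for *F13a1*, *Thbd* and *Plaur*, and above them for *F2rl1* and *Plat*.

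Among the 7 receptors and other members, 2 were called higher and 0 lower, against 4.97% and 4.14% of all genes. *F2rl1* encodes a protease-activated receptor cut by factor VIIa, factor Xa and trypsin-like enzymes. It had 0.367, 0.480 and 0.789 CPM under WT and 3.57, 2.62 and 1.65 CPM under *Themis*-KO, which are 8 and 10 counts in WT 1 and WT 2 and 35 in *Themis*-KO 3. The groups did not overlap, and the log2 fold change was 2.23 (SE 0.39, edgeR adjusted p = 0.0248), the largest of all 36 members.

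*Plat*, the tissue-type plasminogen activator, had 1.74, 0.912 and 2.84 CPM under WT and 8.33, 6.92 and 3.68 CPM under *Themis*-KO. Every *Themis*-KO liver lay above every WT liver, and the log2 fold change was 1.77 (SE 0.42, edgeR adjusted p = 0.0432). Both genes were called in the fits without WT 3 and without *Themis*-KO 3 and in none of the other 4 with a liver left out. Over all genes, 481 were called higher without WT 3, 2228 without *Themis*-KO 3 and 8 to 27 in the other 4. Neither *F2rl1* nor *Plat* was called with the replicate block (edgeR adjusted p = 0.0888 and 0.113), and limma voom called *F2rl1* alone of the pair.

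*F2r*, the main thrombin receptor, was far more abundant than *F2rl1* and had a log2 fold change of 0.11 (SE 0.14, edgeR adjusted p = 0.626). It lies next to *F2rl1* on chromosome 13. *F8* (factor VIII, made by sinusoidal endothelial cells) had a log2 fold change of −0.00029 (SE 0.16, edgeR adjusted p = 0.999) and turned positive under upper quartile scaling and total counts alone. *Tfpi*, the inhibitor of tissue factor and factor VIIa, had 6.93, 6.77 and 8.13 CPM under WT and 9.09, 8.69 and 9.59 CPM under *Themis*-KO, without overlap but not called (0.32, SE 0.13, edgeR adjusted p = 0.139).

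Markers of other cell types mostly had positive values. Over all genes, 4.97% were called higher. Of 11 hepatic stellate cell markers 6 were called higher (*Col3a1*, *Col1a2*, *Col1a1*, *Lum*, *Pdgfrb* and *Dcn*), with sums of 474 to 527 CPM under WT and 698 to 735 CPM under *Themis*-KO. Of 12 macrophage markers 1 was called higher (*Cd68*), with sums of 522 to 879 and 862 to 1078 CPM that overlapped. At an unadjusted edgeR p under 0.05, 7 of the 12 were higher (all genes 16.8%) and 0 lower. The median log2 fold change of the 12 was 0.64, with a range from −1.29 to 1.06. Of 12 endothelial markers 1 (*Lyve1*) was called higher (336 to 372 and 386 to 427 CPM), and of 8 cholangiocyte markers tested 1 (*Spp1*; 169 to 208 and 400 to 632 CPM). Of the 4 platelet and megakaryocyte markers tested, 2 were higher (*Pf4* and *Itgb3*), with sums of 8.81 to 9.79 and 13.7 to 15.9 CPM over all 10 listed; *Gp1bb* and *Gp6* were at 2 counts or fewer in every liver. Of the 5 neutrophil markers tested 0 were called by edgeR and 5 were higher at an unadjusted p under 0.05, against 16.8% of all genes (6.29 to 10.97 and 8.74 to 25.8 CPM over the 7 listed). Their part in the values of the vascular, myeloid and receptor genes was not tested.

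Other genes of the coagulation and fibrinolysis pathway were taken as a list of 24, of which 19 were tested. Of these, 3 were called higher (all genes 4.97%) and 4 lower (all genes 4.14%). *Gas6*, a vitamin K-dependent ligand of TAM receptors, stood at 71.9, 71.3 and 75.9 CPM under WT and at 156, 128 and 133 CPM under *Themis*-KO (log2 fold change 0.93, SE 0.10, edgeR adjusted p = 0.00936). It was the one of the 7 also called with the replicate block (edgeR adjusted p = 0.0486). *Anxa2* and *S100a10*, the 2 chains of a cell surface receptor for plasminogen and its activator, rose by 1.58 (SE 0.22, edgeR adjusted p = 0.0131) and 0.91 (SE 0.17, edgeR adjusted p = 0.0294) on the log2 scale.

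The 4 that fell were *Serpine2*, an inhibitor of thrombin and of plasminogen activators (log2 fold change −1.12, edgeR adjusted p = 0.0342), *Hrg* (histidine-rich glycoprotein, which binds heparin and plasminogen, −0.67, 0.0252), *Lman1* (the receptor that carries factors V and VIII out of the endoplasmic reticulum, −0.62, 0.0302) and *Hgfac* (a relative of factor XII that activates hepatocyte growth factor, −0.53, 0.0306).

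Of the 14 acute phase genes, which hepatocytes make under inflammatory cytokines as they do fibrinogen, 3 rose (*Lcn2*, *Orm2* and *Cp*, all genes 4.97%) and 0 fell (all genes 4.14%). Their median log2 fold change was 0.0087, beside −0.33 for the hepatocyte-made members.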

How the data were processed

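Liver poly(A) RNA of 3 mice labelled WT and 3 labelled *Themis*-KO was analysed from 1 table. The authors trimmed reads with cutadapt 2.3, mapped them to GRCm38 with STAR 2.7.8a and deposited RSEM 1.3.3 estimated counts, which are whole numbers in the table and are not normalized (tools per the submitters' processing notes). The release of the annotation and the use of strand in counting are not given in the sources used here. Reads that match more than 1 gene are shared out by RSEM, which ties the values of near copies together.

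In R 4.3.3 with edgeR 4.0.16, filterByExpr left out 10907 of 25403 genes, libraries were scaled by TMM, and glmQLFit and glmQLFTest compared the labels without covariates. Benjamini-Hochberg adjustment ran over all 14496 tested genes, and an adjusted p under 0.05 was a call. CPM carry no prior count, and standard errors were derived from the fold change and its F statistic. *Themis* was also compared by an exact permutation test. The biological coefficient of variation was 0.157. Depth was 20679642 to 25649767 counts per library. No 2 libraries were the same within sampling noise (lowest chi-square per degree of freedom within a label 9.21).

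The members, gene lists and marker lists were chosen with earlier results of these data known. Full statistics were given for each member with an adjusted p under 0.05 and for the member with the largest change in each role, and up to 6 called genes were named of each other list. Values of further members were given where a result turned on them. Some genes of the lists are not reported here by name. Alternatives were RLE, upper quartile and total-count scaling, DESeq2 1.42.0, no filter on low counts or a minimum of 10 in each liver, limma 3.58.1 (voom), the replicate number as a block, the mitochondrial split as a covariate, each liver left out, and thresholds of an adjusted p of 0.1 or a fold of 2. Whether replicate numbers mark pairs of livers could not be settled.

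On simulated counts with 100 genes changed by 1 and 100 by 2 on the log2 scale, edgeR recovered 92 and 100, and 6 of its 198 calls (3.03%) were unchanged genes among 14544 tested. The simulation gave all genes the same dispersion, changed only well-counted genes and held no mitochondrial split. The hepatocyte-made members called lower changed by less than 1 on the log2 scale. The simulated shares are therefore not error rates of the calls given here. Coordinates and exon lengths came from GENCODE vM21 (25353 genes matched), and promoters from RefSeq. Figures were drawn with matplotlib 3.10.9.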

Additional observations from a re-analysis of the deposited data

How the results depend on the processing

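With 3 livers a label and a biological coefficient of variation of 0.157, changes well under 2-fold were called in some settings and not in others. The 7 hepatocyte-made members called lower became 13 with DESeq2, 1 with the replicate block, 14 at an adjusted p under 0.1, 0 with the mitochondrial split as a covariate and 0 when a 2-fold change was required as well. With 1 liver left out their number ran from 0 (without *Themis*-KO 1) to 9 (without *Themis*-KO 3). The median log2 fold change of all 23 hepatocyte-made members was −0.19 with total counts alone and −0.21 with the mitochondrial covariate, and −0.40 to −0.24 with a liver left out. The 2 receptors and other members called higher became 1 with at least 10 counts in every liver, a filter that left *F2rl1* (8 counts in WT 1) untested. Their number was 1 with limma voom, 0 with the replicate block, 0 with the mitochondrial covariate, and 0 to 2 with a liver left out. Of the same class 0 were called lower, 1 at an adjusted p under 0.1, and 0 to 2 with a liver left out. The median of the 7 members of this class was 0.24 with total counts alone, −0.043 with the mitochondrial covariate, and −0.059 to 0.21 with a liver left out. Of the vascular and myeloid genes 0 were called higher, 2 with no filter on low counts, 2 with DESeq2, 3 at an adjusted p under 0.1, and 0 to 4 with a liver left out. The median of these 6 genes was 0.46 with the mitochondrial covariate. No hepatocyte-made member was called higher, and no vascular or myeloid gene lower, under any alternative run. The direction of *Themis* was negative in all of them and it had an adjusted p under 0.05 in none.

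Of the 36 members, 10 turned their sign under some alternative, and none of these was called by edgeR or any alternative. With total counts alone, *F3* was at 0.011, *F8* at 0.13, *F12* at 0.030 and *Kng2* at 0.077. *F8* was at 0.0043 with upper quartile scaling and at 0.0045 with at least 10 counts in every liver. With the mitochondrial covariate *Serpina10* was at 0.0066 and *F2r* at −0.043. With a liver left out, *F3* ran from −0.38 to 0.031, *F8* from −0.21 to 0.091, *Fga* from −0.53 to 0.10, *Fgb* from −0.52 to 0.049, *Fgg* from −0.61 to 0.034, *Serpina10* from −0.38 to 0.039, *Pros1* from −0.00028 to 0.16 and *F2r* from −0.059 to 0.21. The cause was not tested, beyond the shift of the median of all genes to 0.15 that scaling by total counts brings with it. Over all members and alternatives, 446 of 539 values kept their direction and their side of the threshold, 51 lost the call, 24 gained one and 18 turned.

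The study speaks of pairs of livers, and the labels number the livers of each group from 1 to 3 without saying what a number stands for. Same-numbered livers did not deviate together (mean correlation −0.13, 0 of 3 pairs over 0.1, against 0.066 for differently numbered ones). Deviations within a label sum to 0, so with 3 livers a label both means are tied to each other. These correlations therefore cannot show whether the numbers mark pairs. The replicate block was run as an alternative and not used for the main results. With the block, 1 hepatocyte-made member (*F7*) was called lower and 0 receptors or other members higher, beside 17 genes higher and 45 lower over all genes.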

Other observations

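Among the 54 genes with the fibrinogen chains' exact order of livers were acute phase and matrix proteins of plasma (*Itih3*, *Itih4*, *Crp*, *Fn1* and *Prg4*). Genes of protein folding and export from the endoplasmic reticulum had it too (*Hyou1*, *Creld2*, *Sdf2l1*, *Dnajb11*, *Pdia6*, *Canx*, *Xbp1*, *Sec24d*, *Sec11a*, *Tmed9* and *Copa*). Of the 14 acute phase genes described above, *Itih3*, *Itih4* and *Crp* had this order and the rest did not. Many others of the 54 were of neither kind, such as *Gsk3a*, *Hnrnpc*, *Trim65*, *Zfp111*, *Rgs3* and *Nos1ap*. *Creld2* varied most, at 115 CPM in WT 1, 66.5 in *Themis*-KO 2, 47.4 in *Themis*-KO 1, 35.99 in WT 3, 28.5 in WT 2 and 23.4 in *Themis*-KO 3, a range of 4.89-fold. *Hyou1* varied 3.02-fold and *Xbp1* 2.14-fold, while *Copa* varied 1.14-fold. In 32 of the 54 the range was at least 1.5-fold. These genes were picked after their values were seen, with the order of *Fga* as the measure of likeness over 6 livers, and no test of a shared function was made.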
